A study of Mus musculus with 20 samples.

Results

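Messenger RNA of 9 genes made by the acinar cells of the exocrine pancreas was followed through every library of a mouse pancreatic tumour study. The genes were Cpa1, Cpb1, Cela1, Cela2a, Cel, Pnlip, Ctrb1, Clps and Gp2, chosen by symbol as 9 of the 46983 genes in the raw count table. Each symbol matched 1 row, and all 9 genes passed the low-count filter in every fit. The libraries came from tumours grown from cultured KPC murine pancreatic cancer cells injected orthotopically into the pancreas of C57BL/6 hosts. Hosts were wild type (WT) or IL33-/- (labelled IL33KO), received no treatment, and had tumours at 2 weeks. From each host genotype there were 5 libraries of tumour-infiltrating leukocytes, positively selected on CD45 magnetic beads from a tumour cell suspension and called sorted here, and 5 libraries of bulk tumour. The injected tumour cells are common to all 4 groups and the genotype is that of the host, so it does not extend to the tumour cells, and the host pancreas around the graft remains. How many KPC lines were injected, and their own Il33 status, is not given in the sources used here. The labels name 5 hosts per genotype, do not tie libraries to mice and do not say whether sorted and bulk libraries share tumours, so a p-value here covers only how these libraries vary, which may be partly technical.

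Acinar cells synthesise digestive enzymes, mostly as inactive precursors, pack them into zymogen granules and release them into the pancreatic ducts. Their genes are among the most abundantly transcribed of any tissue and are switched on together by the PTF1 transcription factor complex, with NR5A2 and GATA factors beside it. Leukocytes are not known as a source of these enzymes, and acinar cells do not carry CD45. Among the members, Cpa1 and Cpb1 encode carboxypeptidases, Ctrb1 a chymotrypsinogen, and Cela1 and Cela2a elastase-type proteases. Pnlip encodes pancreatic triglyceride lipase, Clps its cofactor colipase, and Cel the bile-salt-stimulated lipase. Gp2 encodes the main glycoprotein of the zymogen granule membrane.

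Stretches before the transcription start are shown for 5 of the 9 genes. These windows of 250 bases end at the base before the RefSeq start, and come from the RefSeq promoter table (GRCm38.p6), which matched 8 of the 9 members, all but Clps. Against the GENCODE gene coordinates given further below, the Pnlip window lies inside its gene, and the Cela1 and Cela2a windows overlap theirs. Cela1, Cela2a and Cel are shown because their windows hold both the E-box and the RBPJ-type site named below, at any spacing. Cela1 is shown also because it stood apart in bulk tumour. Ctrb1 is shown as the most abundant member and Pnlip as a lipase with a TATA box. Capitals mark the motifs searched on both strands, which are TATAAA, the E-box CACCTG, the RBPJ-type site TTTCCC, the NR5A-type site AAGGTCA and GATAAG.
Cela1: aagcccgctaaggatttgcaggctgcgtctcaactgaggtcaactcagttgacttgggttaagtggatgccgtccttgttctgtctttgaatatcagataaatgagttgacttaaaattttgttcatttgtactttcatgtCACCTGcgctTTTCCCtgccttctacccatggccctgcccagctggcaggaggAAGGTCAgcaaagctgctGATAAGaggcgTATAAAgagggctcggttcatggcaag
Cela2a: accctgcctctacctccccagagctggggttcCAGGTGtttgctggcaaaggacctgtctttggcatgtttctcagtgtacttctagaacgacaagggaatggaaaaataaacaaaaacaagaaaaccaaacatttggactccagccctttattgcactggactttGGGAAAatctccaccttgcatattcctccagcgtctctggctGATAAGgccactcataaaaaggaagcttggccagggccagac
Cel: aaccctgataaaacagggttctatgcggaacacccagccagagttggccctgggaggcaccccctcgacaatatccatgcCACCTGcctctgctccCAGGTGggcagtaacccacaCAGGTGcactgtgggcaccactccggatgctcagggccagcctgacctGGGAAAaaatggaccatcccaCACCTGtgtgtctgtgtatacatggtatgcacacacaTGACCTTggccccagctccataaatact
Ctrb1: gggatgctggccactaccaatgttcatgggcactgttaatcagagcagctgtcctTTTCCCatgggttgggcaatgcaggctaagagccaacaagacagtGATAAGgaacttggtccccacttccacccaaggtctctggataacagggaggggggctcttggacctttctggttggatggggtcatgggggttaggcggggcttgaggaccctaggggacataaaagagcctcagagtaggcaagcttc
Pnlip: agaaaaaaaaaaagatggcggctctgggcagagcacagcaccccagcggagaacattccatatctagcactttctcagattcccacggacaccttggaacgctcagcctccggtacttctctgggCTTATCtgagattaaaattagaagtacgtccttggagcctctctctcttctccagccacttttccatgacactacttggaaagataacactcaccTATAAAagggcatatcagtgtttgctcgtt
The Cela1 window lies at chr15:100687921-100688170 (minus strand), that of Cela2a at chr4:141826006-141826255 (minus), that of Cel at chr2:28563404-28563653 (minus), that of Ctrb1 at chr8:111691011-111691260 (minus) and that of Pnlip at chr19:58670115-58670364 (plus). In Cela1 the E-box occupied positions -109 to -104 and TTTCCC positions -99 to -94, counted back from the start, followed by AAGGTCA at -56 to -50, GATAAG at -38 to -33 and TATAAA at -27 to -22. In Cela2a the same 2 sites stood far apart, with the E-box at -218 to -213 and TTTCCC at -84 to -79. The Cel window held 4 copies of the E-box. GATAAG was present in 5 of the 8 member windows (Cela1, Cela2a, Ctrb1, Gp2, Pnlip) and in 6.55% of all 32851 windows. The E-box was present in 4 of 8 (17.2% of all windows), TTTCCC in 5 of 8 (21.9%), TATAAA in 3 of 8 (12.4%) and AAGGTCA in 2 of 8 (4.08%). Both the E-box and TTTCCC, at any spacing, stood in 3 of 8 windows, against 3.61% of all. These matches describe letters in a window and were not tested as binding sites.

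The libraries held 51.3 to 81.0 M counts in genes (M for mega, median 59.5 M), with 21158 to 23126 genes detected. Ptprc, which encodes CD45, was higher in sorted than in bulk libraries by 3.31 ± 0.22 on the log2 scale (SE) in WT and by 3.34 ± 0.22 in IL33KO (edgeR adjusted p = 2.9e-10 and 4.3e-10). The sum of 10 pan-leukocyte genes was 9125 to 12378 CPM (CPM are counts scaled to a common library size) in the sorted libraries and 712 to 1679 CPM in bulk. The sum of 14 ductal and tumour epithelial genes was 1608 to 4881 CPM in sorted and 7520 to 11001 CPM in bulk, so epithelial transcripts were also present after bead selection. Il33, the targeted gene, was counted in all 20 libraries, at 5.76 to 20.5 CPM in sorted WT, 14.3 to 25.7 in sorted IL33KO, 53.6 to 66.6 in bulk WT and 37.0 to 56.3 in bulk IL33KO. These gene-level counts do not check the genotype labels, because the deposited table does not separate the exons. Genotypes are therefore given as labelled.

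Acinar transcripts were present in all 10 sorted leukocyte libraries, and in bulk tumour they stood out in 3 of 10. The 9 genes together took 0.0631 to 0.392% of gene counts in the sorted WT libraries and 0.0797 to 4.18% in sorted IL33KO. In bulk tumour they took 0.00309 to 0.00512% in 7 libraries, and 1.22% in WT 5, 0.228% in IL33KO 3 and 0.0225% in IL33KO 5. In sorted IL33KO 3, the highest library, about 1 in 24 counts in genes came from these 9 genes (4.18%, 95% Wilson interval 4.17 to 4.18%). Such intervals cover counting error only, since the reads carry no molecular identifiers. In bulk tissue, fewer cells of a type and less RNA per cell cannot be told apart.

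**Figure D1:**
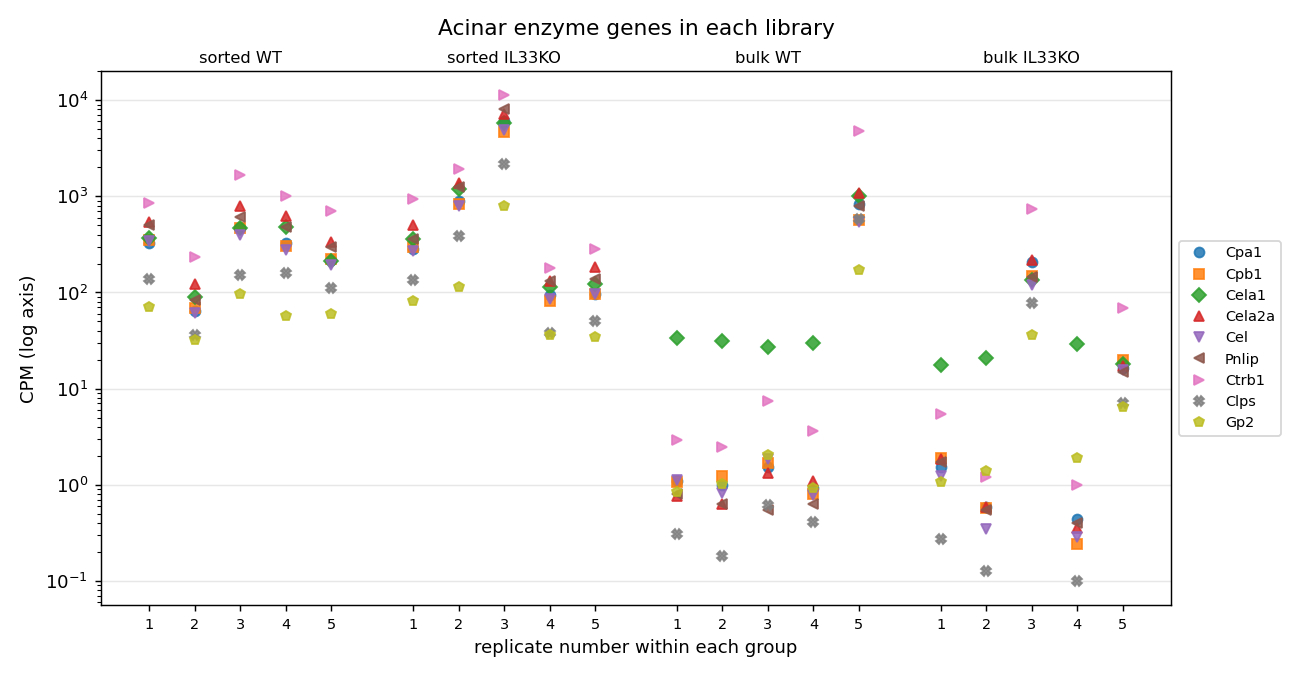
Scaled counts (CPM, log axis) of each of the 9 genes in each of the 20 libraries, arranged by group and replicate number, with 1 point per gene and library. All 10 sorted libraries lie above 30 CPM for every gene, while 7 bulk libraries lie below 8 CPM for every gene except Cela1.

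The chymotrypsinogen gene Ctrb1 (ENSMUSG00000031957, chr8:111686519-111691010 on mm10, protein-coding, minus strand) was the most abundant member per length in every sorted library, with a median of 1019 CPM per kilobase of exon over the 10 sorted libraries. Its levels in sorted WT 1 to 5 were 848, 231, 1679.6, 996 and 709.9 CPM, and in sorted IL33KO 1 to 5 they were 941, 1907, 11182, 181 and 281 CPM. In bulk WT they were 2.92, 2.45, 7.38, 3.60 and 4782 CPM, and in bulk IL33KO 5.41, 1.20, 741, 0.99 and 68.1 CPM. The range of the sorted IL33KO group enclosed that of sorted WT, and bulk WT 5 was above every sorted WT library.

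The elastase-type gene Cela2a (ENSMUSG00000058579, chr4:141814962-141826160, minus strand) ranked second per length in all 10 sorted libraries (median 301 CPM per kilobase). It measured 540.0, 123, 797, 628 and 338 CPM in sorted WT 1 to 5, and 498, 1391, 7229, 130.3 and 182 CPM in sorted IL33KO 1 to 5. In bulk it measured 0.76, 0.63, 1.32, 1.09 and 1076 CPM in WT and 1.84, 0.59, 219.8, 0.35 and 17 CPM in IL33KO. As for Ctrb1, single libraries decided the upper end of each IL33KO group and of bulk WT.

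Of the carboxypeptidase genes Cpa1 (ENSMUSG00000054446, chr6:30639218-30645363, plus strand) and Cpb1 (ENSMUSG00000011463, chr3:20248264-20275733, minus strand), Cpa1 measured 327, 64.2, 465, 327 and 215 CPM in sorted WT 1 to 5 and 285, 901, 6010.1, 95 and 97.2 CPM in sorted IL33KO 1 to 5. In bulk tumour Cpa1 was at 1.10, 0.99, 1.52, 0.92 and 838 CPM in WT and at 1.54, 0.59, 206, 0.44 and 16.6 CPM in IL33KO. Cpb1, whose product removes basic residues where that of Cpa1 removes other residues, followed it library by library, from 68.4 to 474 CPM in sorted WT, 81.2 to 4699 in sorted IL33KO, 0.81 to 562 in bulk WT and 0.24 to 147 in bulk IL33KO. The lowest sorted WT library was WT 2 for both genes, and the highest library of the series was sorted IL33KO 3 for both. Per length Cpa1 stood above Cpb1 in every library, at a median of 175 against 92.0 CPM per kilobase in sorted.

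The lipase and colipase genes were Pnlip (ENSMUSG00000046008, chr19:58652498-58681788, plus strand), Clps (ENSMUSG00000024225, chr17:28558149-28560766, minus strand) and Cel (ENSMUSG00000026818, chr2:28555795-28563403, minus strand). Pnlip measured 506, 84.2, 616, 484 and 297 CPM in sorted WT 1 to 5, and 359.9, 1251, 8177, 130.0 and 137 CPM in sorted IL33KO 1 to 5. Its bulk levels were 0.80, 0.63, 0.54, 0.63 and 789 CPM in WT and 1.72, 0.54, 145, 0.40 and 14.7 CPM in IL33KO. Clps, encoding the cofactor that holds this lipase on fat droplets, ranged from 36.0 to 159 CPM in sorted WT and 38.2 to 2156 in sorted IL33KO, and was as low as 9 counts (0.10 CPM) in bulk IL33KO 4, the lowest CPM of any member. Cel ranged from 61.2 to 397 CPM in sorted WT, 85.1 to 4877 in sorted IL33KO, 0.78 to 539 in bulk WT and 0.29 to 119 in bulk IL33KO. For all 3 of these genes the highest library was replicate 3 in sorted IL33KO, replicate 5 in bulk WT and replicate 3 in bulk IL33KO.

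The granule membrane protein gene Gp2 (ENSMUSG00000030954, chr7:119442537-119459285, minus strand) was the least abundant member per length in every sorted library (median 32.4 CPM per kilobase) and varied least. It measured 70.3, 31.7, 96.5, 57.3 and 59.2 CPM in sorted WT, and 81.0, 114, 798, 36.3 and 34.6 CPM in sorted IL33KO. The highest sorted library was 25.1 times the lowest for Gp2, against 58.6 times for Cela2a and 97.1 times for Pnlip. In bulk Gp2 measured 0.84, 1.03, 2.04, 0.92 and 171 CPM in WT and 1.06, 1.39, 35.7, 1.89 and 6.47 CPM in IL33KO. Among the sorted libraries the Gp2 to Cpa1 ratio of counts was lowest in IL33KO 2 and IL33KO 3, which had the most acinar RNA (0.13 in both), and highest in WT 2 (0.49).

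The other elastase gene, Cela1 (ENSMUSG00000023031, chr15:100674421-100687921, minus strand), behaved like the rest in sorted libraries and unlike them in bulk. It measured 365, 89.2, 467, 480.3 and 213 CPM in sorted WT 1 to 5 and 359.6, 1186, 5835, 113 and 123 CPM in sorted IL33KO 1 to 5. In bulk it measured 34, 31.2, 27.0, 30.0 and 996 CPM in WT, and 17.5, 20.8, 135, 28.9 and 17.8 CPM in IL33KO. No bulk library was below 17.5 CPM (1607 counts in IL33KO 1), although the other 8 genes summed to 4.70 to 16.9 CPM in 7 of them. The Cela1 to Cpa1 ratio of CPM was 0.97 to 1.47 over the 10 sorted libraries and 11.4 to 65.5 in those 7 bulk libraries, and 0.65 to 1.19 in bulk WT 5, IL33KO 3 and IL33KO 5. In bulk IL33KO 5 Cela1 lay within the level of the libraries nearly free of the other members.

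**Figure D2:**
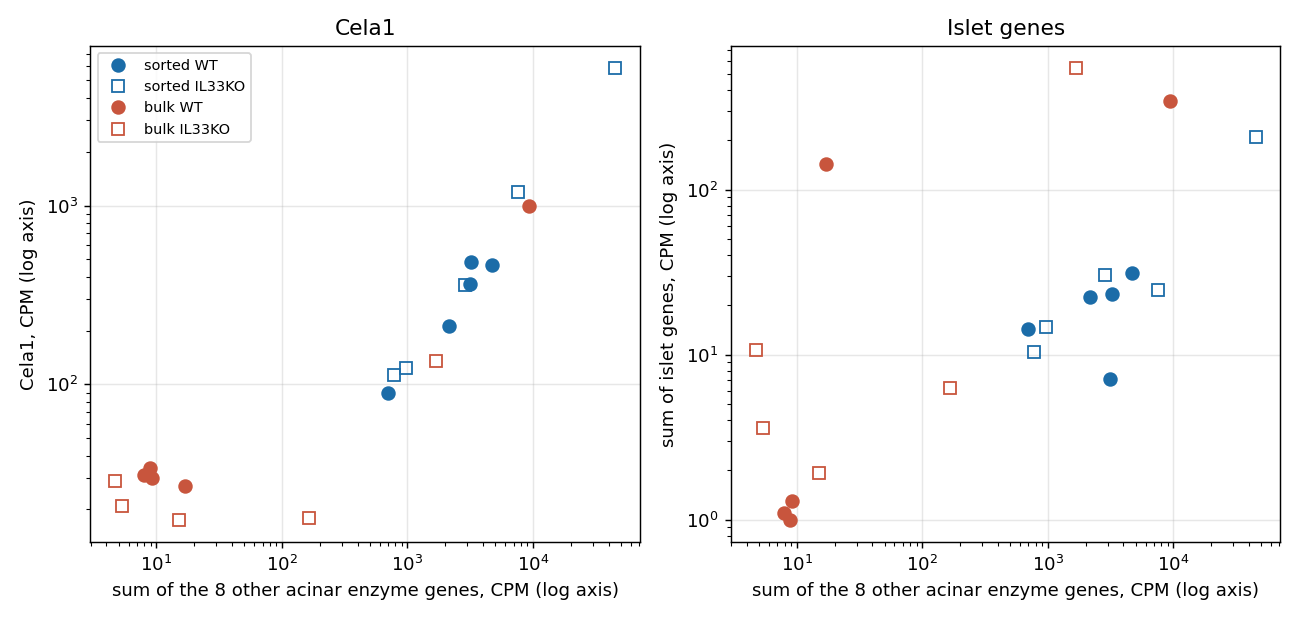
Left, Cela1 against the sum of the 8 other acinar genes in each library, and right, the sum of 17 islet endocrine genes against the same sum, all in CPM on log axes with 1 point per library. Cela1 stays between 17.5 and 34 CPM in the 8 bulk libraries at the lower left and follows the other genes above them, and in the right panel bulk WT 3 has islet transcripts (143 CPM) with few acinar ones (16.9 CPM).

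The make-up of the acinar counts varied much less over the 10 sorted libraries than their total, which ran from 789.7 to 50963 CPM. Ctrb1 supplied 20.3 to 32.7% of the counts of the 9 genes there, Cela2a 14.2 to 16.9%, Pnlip 10.7 to 16.0%, Cela1 9.0 to 13.5% and Cpa1 8.13 to 11.8%. Gp2 was less steady, at 1.30 to 4.08%. The SD of log2 CPM over the 10 sorted libraries was 1.35 (Gp2) to 1.90 (Pnlip), whereas the SD of a member's log2 ratio to the mean of the other members was 0.09 for Cpb1, 0.10 for Cela2a, 0.31 for Ctrb1 and 0.59 for Gp2. Across the 36 pairs of members, Pearson's r of log2 CPM was 0.957 to 0.999 over the 10 sorted libraries and 0.812 to 0.998 over the 10 bulk libraries. These libraries share their acinar content as a whole, and the r is a description.

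Where bulk tumour held acinar RNA, some members took shares outside the sorted range and others did not. Ctrb1 supplied 46.3, 40.6 and 37.2% of the counts in bulk WT 5, IL33KO 3 and IL33KO 5, above all 10 sorted libraries. Pnlip supplied 7.64, 7.93 and 8.05% and Cela2a 10.4, 12 and 9.28% in these libraries, below all 10 sorted ones. These are shares of the same total, so a larger share of Ctrb1 lowers the others. The Cela2a to Cpa1 ratio of counts was 1.28, 1.06 and 1.03 there, against 1.20 to 1.92 in sorted. Gp2 lay within the sorted range in all 3 (1.65, 1.96 and 3.54%, against 1.30 to 4.08%), and Cpa1, Cela1 and Clps each lay within it in 2 of the 3. Cpb1 lay outside it in all 3, below or above (5.44, 8.03 and 10.7%, against 8.22 to 10.1%). The Ctrb1 to Pnlip ratio of counts was 6.06, 5.11 and 4.62 there and 1.37 to 2.75 in the sorted libraries. These 3 libraries were picked for their acinar level after the values were seen, so the difference was not tested. In the other 7 bulk libraries Cela1 supplied 53.9 to 86.0% of the counts.

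**Figure D3:**
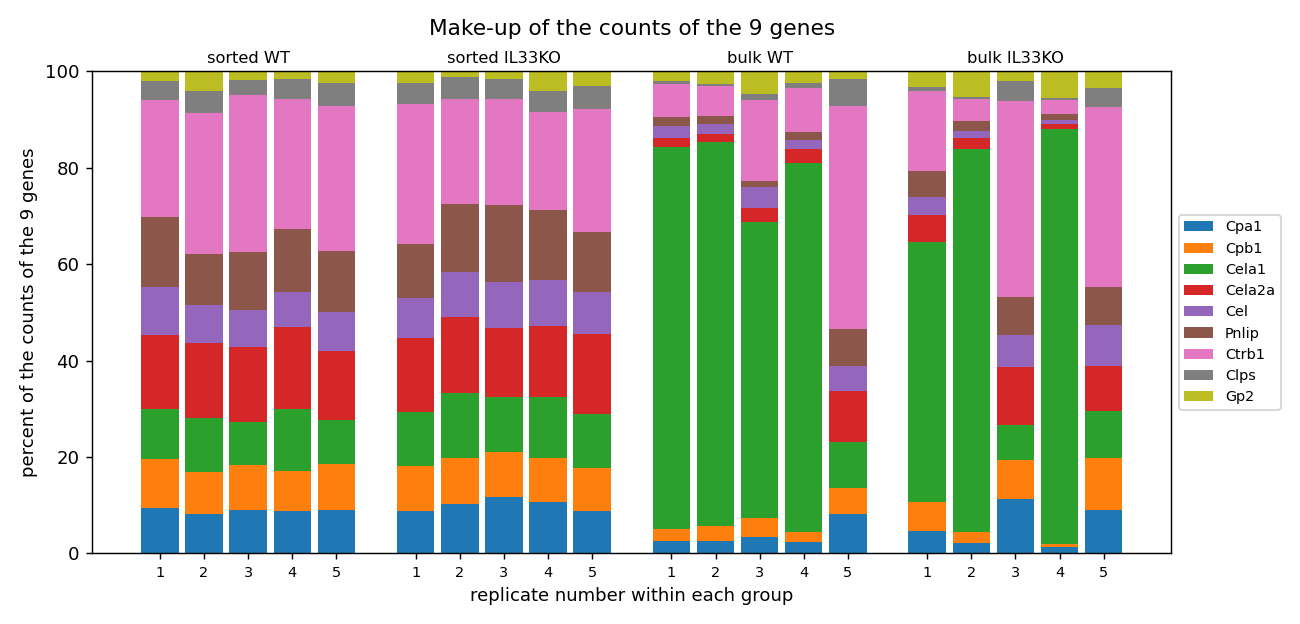
Percent of the counts of the 9 genes supplied by each gene in each of the 20 libraries, stacked to 100%. The 10 sorted libraries look alike, Cela1 fills most of 7 bulk libraries, and Ctrb1 takes 37.2 to 46.3% in bulk WT 5, IL33KO 3 and IL33KO 5.

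The first comparison asked whether acinar RNA in the sorted leukocytes differed between host genotypes. None of the 9 genes passed the test (edgeR quasi-likelihood, adjusted p 0.440 to 0.542), and 0.012% of the 16731 genes tested did so. None had an unadjusted p under 0.05 (12.9% of all genes). DESeq2 and limma voom called none either (3.38% and 2.39% of all genes). The estimates were all positive, from 1.72 ± 1.08 for Ctrb1 to 2.42 ± 1.19 for Cpa1 on the log2 scale (SE), against a median of 0.02 over all genes. With the same libraries limma voom gave smaller estimates, 0.36 to 0.85. The sorted groups overlapped for every member (over all genes, 3.7% did not overlap). Group medians were close, at 0.74 (Pnlip) to 1.37 (Gp2) times WT, and exact permutation p-values of log2 CPM were 0.492 to 0.722 (two-sided, n = 5 against 5, unadjusted). Without sorted IL33KO 3 the estimates were -0.10 (Ctrb1) to 0.47, with adjusted p 0.845 to 0.971 in edgeR. That library also had the highest epithelial sum of the sorted libraries (4881 CPM) and the highest islet sum (208 CPM against 7.08 to 31.3 CPM in the other 9), whose part in the result was not tested.

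In bulk tumour the same comparison gave estimates of the opposite sign, and none passed. The 9 log2 fold changes of IL33KO against WT ran from -2.71 ± 2.62 for Clps to -1.70 ± 2.28 for Cpb1, with edgeR adjusted p 0.724 to 0.805 and no unadjusted p under 0.05. Over all 17258 genes 0% passed, with 1098 (6.36%) at an unadjusted p under 0.05. DESeq2 gave no adjusted p for any of the 9, and limma voom called none, while it called 19.5% of all genes. All 9 overlapped between the groups (0.655% of all genes did not), and exact permutation p-values were 0.460 to 0.992 (two-sided, n = 5 against 5). Without bulk WT 5 all 9 estimates turned positive, from 0.55 for Cela1 to 5.70 for Cela2a, with edgeR adjusted p 0.144 to 0.610, while without bulk IL33KO 3 they ran from -5.96 to -3.42. With all libraries in, limma voom gave positive estimates for 4 of the 9 genes (-0.43 to 1.16 over all 9).

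**Figure D4:**
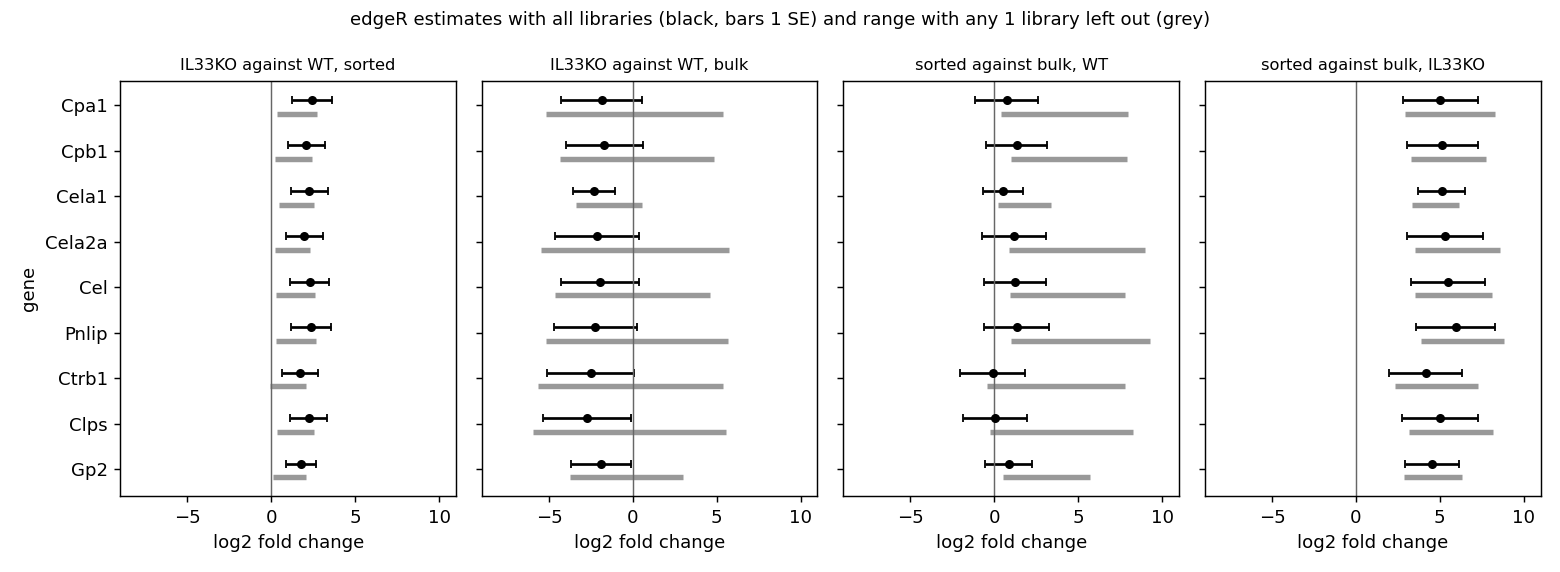
Log2 fold change of each gene in 4 comparisons, as the edgeR estimate from all libraries (black point, bar of 1 SE on each side) and as the range of estimates when any 1 library is left out (grey bar). The grey bars cross 0 for every gene in the bulk genotype comparison, from -5.96 to 5.70, and stay above 0 for every gene in IL33KO sorted against bulk.

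Sorted leukocytes were then compared with bulk tumour within each host genotype, over all 20 libraries in 1 fit. In WT the median of the sorted libraries was 11.7 (Cela1) to 762 (Pnlip) times the bulk median, but no member passed edgeR's test (adjusted p 0.531 to 0.986, none under 0.05 unadjusted, against 70.5% of all genes), where 68% of all 18145 genes did and 33.7% were called higher. The estimates ran from -0.10 ± 1.94 for Ctrb1 to 1.33 ± 1.82 for Cpb1 on the log2 scale. Bulk WT 5 exceeded all 5 sorted WT libraries for all 9 genes, and the other 4 bulk WT libraries lay below all 5, so the groups overlapped for every member (50.5% of all genes did not). Without bulk WT 5 all 9 genes were higher in sorted, by 3.40 (Cela1) to 9.24 (Pnlip) on the log2 scale (edgeR adjusted p 0.000981 to 0.0112). Bulk WT 5 is singled out here for its level of the genes tested, so no conclusion is drawn from the run without it. Limma voom with sample weights called all 9 with every library in. Of all genes, 69.4% were called without bulk WT 5 and 79.7% by limma voom. DESeq2 called none. The exact permutation test of log2 CPM, which weighs each library alike, gave an unadjusted p = 0.0476 for 8 genes and 0.0873 for Cela1 (n = 5 against 5, two-sided, smallest possible 0.00794), and 67.6% of all genes were under 0.05 in it.

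In IL33KO hosts 5 of the 9 genes were higher in sorted than in bulk libraries, where 31.3% of all 18145 genes were called higher and 63% called in either direction. They were Cela1 (5.11 ± 1.41, adjusted p = 0.00424), Gp2 (4.52 ± 1.62, 0.0216), Pnlip (5.95 ± 2.35, 0.0348), Cel (5.49 ± 2.18, 0.0361) and Cpb1 (5.15 ± 2.13, 0.0435; log2 fold change ± SE, edgeR). Cela2a (5.30 ± 2.28, 0.0515), Cpa1 (5.03 ± 2.22, 0.0570), Clps (5.01 ± 2.29, 0.0648) and Ctrb1 (4.15 ± 2.20, 0.109) had estimates of like size and did not pass. Every sorted IL33KO library was above the bulk IL33KO median for all 9 genes, with ratios of medians of 17.3 (Cela1) to 500.4 (Clps). Bulk IL33KO 3 was above sorted IL33KO 4 and 5 for 8 genes and above IL33KO 5 alone for Gp2, so no member was free of overlap (48.8% of all genes were). Exact permutation p-values were 0.0159 for Gp2 and 0.0238 for the other 8 (n = 5 against 5, two-sided, unadjusted), with 66.4% of all genes under 0.05. The call count was 1 without sorted IL33KO 3, 2 without any 1 of bulk IL33KO 1, 2, 4 and 5, and 9 without bulk IL33KO 3 or without bulk WT 5, which shares the fit. Of all genes, 60.8% were called without sorted IL33KO 3, 61.6% without bulk IL33KO 3 and 65.2% without bulk WT 5. Without bulk IL33KO 1, 2, 4 and 5 in turn, 59.7, 59.9, 59.8 and 61.5% were called. An alternative chosen after seeing the data left out sorted IL33KO 3, bulk IL33KO 3 and bulk WT 5, the highest of their groups for these genes. It called all 9 in both genotypes (edgeR), with 70.4% of all genes called in WT and 63.1% in IL33KO. Because the bulk libraries were picked on the values tested, no conclusion is drawn from this run.

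The difference between host genotypes in the sorted to bulk change was not called for any member. Its estimates were 3.67 ± 2.04 for Gp2 to 4.97 ± 2.89 for Clps on the log2 scale, with edgeR adjusted p 0.445 to 0.538, and 0% of all 18145 genes passed (2028, or 11.2%, at an unadjusted p under 0.05). Cela1 had an unadjusted p = 0.0177 in this edgeR fit, the only member under 0.05. DESeq2 and limma voom called no member (0.022% and 18.8% of all genes). Without bulk WT 5 the estimate was negative for 8 of the 9 genes, down to -3.69.

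Other digestive enzyme genes, a textbook list of the same cell type, varied with the members. Of 22 symbols 21 were in the table and 18 were tested over all libraries; they include 2210010C04Rik, the trypsinogen gene Prss2, the lipase relative Pnliprp1 and the elastase gene Cela3b. In sorted leukocytes 0 of 18 were called between genotypes with a median log2 fold change of 2.01, and in bulk 0 of 13 with a median of -2.03. In sorted against bulk, 0 of 18 were called in WT (median 0.43) and 9 of 18 were called higher in IL33KO (median 4.8, none lower), against medians over all genes of -0.003 and 0.017. Of all genes, 68% were called in WT (33.7% higher) and 63% in IL33KO (31.3% higher). Prss2 measured 69.9 to 3719 CPM in sorted IL33KO, 68.1 to 414 in sorted WT, 1.02 to 693 in bulk WT and 0.60 to 248 in bulk IL33KO. Trypsinogen and amylase genes have near-identical copies, and multiply aligned reads stayed out of the counts, so their levels are uncertain.

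The genes most like the members were found by Pearson's r of log2 CPM with the members' mean, among genes outside the 9. Over the 10 sorted libraries they included Rnase1 (r = 0.998), Ctrl, Pnliprp2, Cuzd1, Cela3b, Prss2, Sycn, Pla2g1b and Erp27 (r = 0.992), all of these in the 2 lists of other acinar enzyme and secretory genes. Only 33 of 16722 genes had an r above 0.95. Over the 10 bulk libraries they were Rnase1 (r = 0.998), Cela3b, Try4, Sycn and Prss2 (r = 0.996), with 18 of 17249 genes above 0.95. The r is a description over libraries that share their acinar content.

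The list of other acinar secretory and granule genes was mixed. Between genotypes 0 of 14 were called in sorted (median 1.90) and 0 of 7 in bulk (median -1.15), and in sorted against bulk 2 of 15 were higher and 2 lower in WT, 8 higher and 1 lower in IL33KO. For sorted against bulk, 68% of all genes were called in WT (33.7% higher) and 63% in IL33KO (31.3% higher). Zg16, a granule lectin gene, ran with the members, from 16.4 to 94.5 CPM in sorted WT, 21.6 to 1379 in sorted IL33KO and 0.17 to 310.5 in bulk WT. Dmbt1, a mucosal scavenger receptor gene, did not: it measured 5015 to 8149 CPM in bulk WT 1 to 4, which were nearly free of the members, and 1922 CPM in bulk WT 5. Dmbt1 was lower in sorted than in bulk libraries, by 2.95 ± 0.41 in WT and 1.24 ± 0.39 in IL33KO on the log2 scale (edgeR adjusted p = 3.9e-06 and 0.00954). Tff2, a trefoil peptide gene, was 519 to 675 CPM in bulk WT 1 to 4 and 223 CPM in bulk WT 5. Gatm, a creatine synthesis gene, was higher in sorted, by 2.91 ± 0.32 in WT and 2.56 ± 0.31 in IL33KO (edgeR adjusted p = 1.7e-07 and 1.0e-06), and at 16.3 to 48.1 CPM in all bulk WT libraries.

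Endocrine cells of the islets lie within the acinar tissue, and their genes gave a second reading of pancreas in each library. The 17 islet genes summed to 7.08 to 31.3 CPM in 9 sorted libraries and 208 CPM in sorted IL33KO 3. In bulk they summed to 143 CPM in WT 3, 346 in WT 5 and 543 in IL33KO 3, and to 1.00 to 10.6 CPM in the other 7. Ins2, an insulin gene, was at 72.7 CPM in bulk WT 3, where Cpa1 was at 1.52 CPM, and at 1.66 CPM in bulk IL33KO 5, where Cpa1 was at 16.6 CPM. Islet and acinar transcripts thus both marked bulk WT 5 and IL33KO 3, while bulk WT 3 and IL33KO 5 each had 1 of the 2. Between genotypes 0 of 10 islet genes were called in sorted (median log2 fold change 1.33) and 0 of 9 in bulk (median 0.48). In sorted against bulk 1 of 13 was called higher in WT, and 1 higher and 1 lower in IL33KO. There 12 of 13 estimates were negative in WT (median -1.70) and 11 of 13 in IL33KO (median -0.96). The list of other digestive enzyme genes had medians of 0.43 and 4.8 in these 2 comparisons. For sorted against bulk, 68% of all genes were called in WT and 63% in IL33KO.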

How the data were processed

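RNA-seq was measured in 20 libraries, 5 in each of 4 groups named by the sample titles. Per the labels' protocols, tumours were dissociated, CD45+ cells were taken on magnetic beads, and poly(A) libraries were made with a stranded kit; the same extraction text is attached to the bulk libraries. The authors deposited raw HTSeq counts per gene for 46983 genes, and a second table of 22924 genes holding scaled signal, each count divided by a DESeq size factor, which was used only as an alternative scale. Per the submitters' processing notes the tools were Picard, HTSeq and DESeq (no versions named) on the build mm10; which aligner was used, and whether counting used strand, is not given in the sources used here. The 5 summary lines (26.1 to 40.5% of reads) stayed out of library sizes. Coordinates and exon lengths came from GENCODE M21 (46488 identifiers matched). Exons of Cela2a overlap those of Ctrc, on the same strand, and those of Casp9, on the opposite strand, so its counts are uncertain to that extent.

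Counts were tested in R 4.3.3 with edgeR 4.0.16 (filterByExpr, TMM, robust quasi-likelihood, two-sided, Benjamini-Hochberg over all genes, threshold 0.05): 16731 genes in sorted, 17258 in bulk and 18145 over all 20 libraries. Library sizes for CPM were scaled by TMM, and log2 CPM added a prior count of 2. Exact permutation tests of single genes ran over all 252 assignments (36 computed). Alternatives were DESeq2 1.42.0, voom in limma 3.58.1, DESeq2 size factors, no filter, library sizes without acinar genes, the replicate number as a block and each library left out. The labels give no batch. The test scripts were checked on simulated counts. Replicates were compared with each other and all differed beyond sampling noise (lowest chi-square per gene 19.6). Genes named singly were the 9 members, Il33, Ptprc, at most 4 genes per list by mean CPM over all libraries, and the 10 (sorted) and 5 (bulk) most alike in r; 1 of these is not reported here. The members and the 11 gene lists (131 symbols, 3 absent from the table) were chosen with earlier results of these data known.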

Additional observations from a re-analysis of the deposited data

Results flagged for a closer look

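Library values of each gene were screened within each group of 5 by the gap of the highest or lowest log2 CPM to its neighbour, divided by the group's range, with a limit of 0.71; chance passes about 1 in 20 groups. Bulk WT 5 was far above the other 4 bulk WT libraries for all 9 genes, with ratios of 0.948 for Pnlip, 0.936 for Cela1, 0.928 for Cpa1, 0.905 for Cela2a, 0.890 for Cpb1, 0.872 for Cel, 0.860 for Clps, 0.856 for Ctrb1 and 0.837 for Gp2. The 9 values are not independent, since the genes vary together. Bulk IL33KO 3 was far above the others of its group for Cela1 (0.754), at 135 CPM against 17.5 to 28.9 CPM in the other bulk IL33KO libraries. Sorted WT 2 was far below its group for Clps (0.761), at 36.0 CPM against 112 to 159 CPM. Sorted IL33KO 3, the library with the most acinar RNA, did not pass this limit for any gene, and sorted IL33KO 2 lay between it and the rest.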

How the results depend on the processing

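No member was called between host genotypes in sorted or in bulk under any alternative run (DESeq2 gave no adjusted p in bulk), and the calls in sorted against bulk changed when single libraries were left out. With each library left out in turn, the number of members called was 0 to 0 in both genotype comparisons and in the difference of differences, 0 to 9 in WT sorted against bulk (9 without bulk WT 5) and 1 to 9 in IL33KO sorted against bulk. Over all genes the count ran from 1 to 3 in sorted (1 without any 1 library other than IL33KO 3), 0 to 19 in bulk (19 without WT 5), 11835 to 12707 in WT and 10819 to 11925 in IL33KO sorted against bulk, and 0 to 27 for the difference (27 without bulk WT 5). For the members in IL33KO sorted against bulk, no filter gave 2 calls (42.4% of all genes were called). DESeq2 (64.9% of all genes), limma voom (70.9%) and leaving out 3 libraries together (63.1%) gave 9 each. The 3 libraries were bulk WT 5, bulk IL33KO 3 and sorted IL33KO 3, chosen after seeing the data for their level of these genes. In WT, voom (79.7% of all genes) and the 3 libraries left out (70.4%) gave 9. Over all genes, DESeq2 called 566 in the sorted and 50 in the bulk genotype comparison and 4 for the difference, voom 400, 3371 and 3406, DESeq2 size factors 1 for the difference, and leaving out libraries chosen after seeing the data 3 in bulk and 3 for the difference. The cause of these differences was not tested.

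Signs of single genes turned as follows. In the bulk genotype comparison voom gave 0.10 for Cpa1, 0.31 for Cela2a, 0.51 for Pnlip and 1.16 for Gp2. Without bulk WT 5 and IL33KO 3 the values were 2.01 for Cpa1, 2.15 for Cpb1, 2.31 for Cela2a, 1.87 for Cel, 2.66 for Pnlip, 2.15 for Ctrb1, 2.24 for Clps and 1.11 for Gp2. In WT sorted against bulk Ctrb1 was 7.11 by voom and 7.77 without the 3 libraries. For the difference, leaving out the 3 libraries gave -1.77 for Cpa1, -2.01 for Cpb1, -2.19 for Cela2a, -1.63 for Cel, -2.49 for Pnlip, -2.32 for Ctrb1, -1.93 for Clps and -1.08 for Gp2, and voom gave -0.56 for Gp2. Log2 fold changes with each library left out in turn had these ranges for the genes whose sign turned. The sorted genotype comparison gave -0.10 to 2.06 for Ctrb1. In the bulk genotype comparison they ran from -5.16 to 5.36 for Cpa1, -4.36 to 4.85 for Cpb1, -3.42 to 0.55 for Cela1, -5.46 to 5.70 for Cela2a, -4.66 to 4.62 for Cel, -5.20 to 5.67 for Pnlip, -5.68 to 5.37 for Ctrb1, -5.96 to 5.53 for Clps and -3.72 to 2.98 for Gp2. WT sorted against bulk gave -0.46 to 7.77 for Ctrb1 and -0.28 to 8.28 for Clps. The difference gave -2.91 to 7.54 for Cpa1, -2.73 to 6.42 for Cpb1, -3.69 to 7.41 for Cela2a, -2.31 to 6.91 for Cel, -3.29 to 7.53 for Pnlip, -3.62 to 7.36 for Ctrb1, -3.27 to 8.16 for Clps and -1.18 to 5.46 for Gp2.

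Whether replicate numbers pair the libraries could not be told from the values. Deviations of same-numbered libraries correlated at -0.15 to 0.17 (WT, sorted with bulk), -0.26 to 0.30 (IL33KO, sorted with bulk), -0.19 to 0.34 (sorted, WT with IL33KO) and -0.12 to 0.59 (bulk). In these comparisons 1, 1, 3 and 2 of 5 libraries correlated best with their own number. With the replicate block, members called were 0 in both genotype comparisons. In sorted against bulk, 0 were called in WT (68.1% of all genes) and 9 in IL33KO (63.2% of all genes). The 9 estimates of the sorted genotype comparison were 0.42 to 0.79, and 1 gene was called there over all genes. The estimate was 0.14 for Pnlip and 0.44 for Gp2 in the bulk genotype comparison, and 5.66 for Ctrb1 in WT sorted against bulk.

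At this depth 3 counts were worth 0.0371 to 0.0585 CPM, and the lowest member value was 9 counts.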

Other observations

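Rbpjl, which encodes the acinar-specific subunit of PTF1, did not keep a fixed ratio to Cpa1. It was at 14.0 CPM in bulk WT 5 (Cpa1 838 CPM) and at 3.52 CPM in sorted IL33KO 3 (Cpa1 6010 CPM). Per 1000 counts of Cpa1 there were 16.7 counts of Rbpjl in bulk WT 5, 5.83 in bulk IL33KO 3 and 7.47 in bulk IL33KO 5, against 0.586 to 3.58 in the 10 sorted libraries. Some of these ratios rest on few Rbpjl counts, since Cpa1 itself had 1205 counts in bulk IL33KO 5 and 2993 in sorted WT 2. The 3 bulk libraries were picked for their acinar level, and the difference was not tested. Of the 7 transcription factor genes 0 of 6 were called between genotypes in sorted and 0 of 5 in bulk. In sorted against bulk, 2 were higher and 1 lower in WT (68% of all genes called), and 3 higher and 1 lower in IL33KO (63%). Bhlha15, which also acts in plasma cells, and Xbp1, which acts in all secretory cells, were higher in sorted in both genotypes (Xbp1 by 1.15 ± 0.25 and 1.24 ± 0.25 on the log2 scale, edgeR adjusted p = 0.00038 and 0.00023), and Gata4 was lower (by 2.36 ± 0.26 on the log2 scale in WT, edgeR adjusted p = 1.8e-07).

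The regenerating family, secreted proteins that injured acinar cells are known to make, varied with the members, and its summed level reached 2023 CPM in sorted IL33KO and 1713 CPM in bulk WT. None of its 6 tested genes was called between genotypes in sorted leukocytes or of 5 in bulk. In sorted against bulk 1 of 6 was lower in WT (68% of all genes called) and 0 were called in IL33KO (63%). Per 1000 counts of Cpa1, Reg3b had 29.3 counts in sorted IL33KO 3 and 581 in sorted IL33KO 1. In bulk WT 1, 2 and 4 Reg3b stood at 15.8 to 19.7 CPM, with Cpa1 near 1 CPM.

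Markers of other cell types were counted in sorted against bulk, where 68% of all genes were called in WT (33.7% higher) and 63% in IL33KO (31.3% higher). All 10 pan-leukocyte genes were higher in sorted; 12 of 14 ductal and tumour epithelial genes were lower in WT, and 13 were lower and 1 higher in IL33KO. For fibroblast genes 7 of 10 were lower and 1 higher in WT and 9 lower and 1 higher in IL33KO, for endothelial genes 7 of 8 lower and 1 higher in WT and 6 lower and 1 higher in IL33KO, for mesothelial genes 5 of 7 lower in WT and 6 in IL33KO, and for genes of other abdominal organs 6 of 11 lower in WT and 2 in IL33KO. No gene of these 6 lists was called between genotypes in sorted or bulk libraries (edgeR, adjusted over all genes). In sorted against bulk the higher fibroblast gene was Thy1 and the higher endothelial gene Pecam1, in both genotypes. Msln is in both the epithelial and the mesothelial list, so these 2 lists are not separate.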
